A study of Mus musculus with 6 samples.

Results

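The smooth muscle and myofibroblast contractile genes Acta2, Actg2, Tagln, Cnn1, Myh11, Myl9, Lmod1, Synpo2, Des and Smtn were examined in cultured bone marrow mesenchymal stromal cells (MSCs). They were taken by gene name from the deposited expression table, in which all 10 were found among 55401 genes. MSCs are progenitors of bone, fat and connective tissue, and these came from the femur of C57/B6J mice. The groups were 3 libraries of wild-type (WT) cells and 3 of NLRP3 knockout cells, all from cultures kept for 24 h with 3 µg/mL lipopolysaccharide (LPS), a bacterial cell wall component sensed by TLR4. Nlrp3 encodes an inflammasome sensor, which is expressed mainly in myeloid cells, and how the knockout allele was made is not given in the sources used here. Both genotypes received LPS, so the comparison addresses how they differed under LPS and not what LPS did. No label states that replicates were separate animals or separate cultures, and the p-values therefore reflect the spread of these libraries alone, possibly a technical one. Any other difference between the WT and knockout cultures cannot be told apart from the genotype.

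Smooth muscle cells shorten when myosin pulls on filaments of muscle-specific actins. Calcium and calmodulin activate myosin light chain kinase, which phosphorylates the regulatory light chain and switches the motor on, while calponin and other actin-binding proteins adjust the filament. Many of these genes are switched on by serum response factor (SRF), which binds a DNA element called the CArG box together with myocardin or a myocardin-related factor. Fibroblasts and stromal cells that turn into myofibroblasts take on part of this set, above all Acta2 and Tagln, whereas the smooth muscle myosin heavy chain Myh11 is known as a marker of mature smooth muscle.

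The library labels were checked on Nlrp3, which stood at 2.76, 1.68 and 1.86 FPKM (fragments per kilobase of transcript and 1e6 mapped fragments) in WT replicates 1, 2 and 3 and had 0 estimated counts in each knockout library. Library totals were 53.2 to 66.3 M estimated counts (M, 1e6), or about 13.3 to 16.6 M fragments. Correlations of log2(FPKM + 1) were 0.973 to 0.985 within a genotype and 0.943 to 0.952 across genotypes. Macrophage markers moved with the contractile genes. Of 31, all detected, 27 passed the expression filter and 27 were higher in knockout libraries (10.4% of all tested genes were). With a library left out 21 to 26 were called higher, and without the filter on low values 23 were. Aif1 and Trem2 passed the filter through the knockout libraries alone. The summed level of the 31 was 802.5 to 910.3 FPKM in WT and 1852 to 2114 in knockout libraries. Adgre1, which encodes F4/80, rose from 44.0 ± 2.7 to 134 ± 2.8, and Cd68 from 13.3 ± 1.3 to 18.9 ± 0.79 FPKM (SD, n = 3; limma adjusted p = 2.9e-05 and 0.00823). Of 23 tested genes of stromal cells and fibroblasts, 9 were called higher and 10 lower (39.1% and 43.5%, against 10.4% and 9.2% of all tested genes). Among the lower ones, Thy1 fell from 133.7 ± 6.2 to 11.8 ± 1.2 FPKM (limma adjusted p = 3.75e-06). Pdgfra fell from 30.2 ± 1.7 to 2.96 ± 0.23 FPKM (limma adjusted p = 3.75e-06). Genes of this list that rose, Postn and Ccn1 among them, are given below. Vim, the intermediate filament of mesenchymal cells, was not called by limma. The part of macrophages or of fewer stromal cells in the results below was not tested. In bulk RNA, a change in the number of cells of a type and a change in RNA per cell cannot be told apart.

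Contractile genes spanned more than 3 powers of 10 and most were higher in the knockout cultures. Of the 10 genes, 8 had 3 or more libraries at or above an FPKM of 1 and were tested with limma on log2(FPKM + 1), and each of these 8 was higher at an adjusted p of 0.05, against 10.4% of the 12136 genes tested. Synpo2 passed that filter through the knockout libraries alone. The median log2 fold change of the 8 was 0.86, against 0.005 over all tested genes. The remaining genes, Myh11 and Des, were below the filter and lower in mean level in the knockout libraries. The plot of levels by library shows this split, which did not follow abundance alone. Synpo2, called higher, had the lowest WT mean (0.507 FPKM), below Myh11 (0.537) and Des (0.773).

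**Figure D1:**
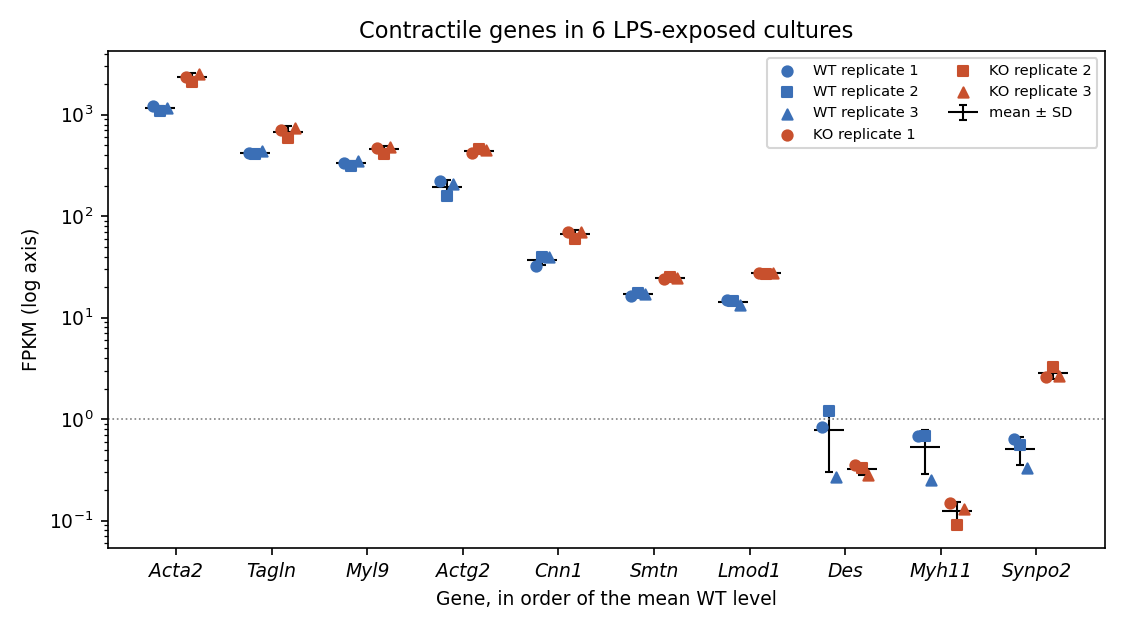
FPKM (log axis) of the 10 contractile genes in each library, with blue symbols for WT and orange for knockout (KO), symbol shape for the replicate and black bars for mean ± SD of 3 libraries; the dotted line marks an FPKM of 1. Knockout symbols lie above all WT symbols for 8 genes, while Myh11 lies below and Des overlaps.

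The smooth muscle actins Acta2 and Actg2 were both higher in the knockout libraries, and Acta2 was the most abundant of the 10 genes in both genotypes. Acta2 (ENSMUSG00000035783, GRCm38 chromosome 19, 34241090 to 34255590, minus strand) encodes smooth muscle alpha-actin, the usual marker of myofibroblasts. It stood at 1217, 1079 and 1171 FPKM in WT and at 2373, 2105 and 2537 in knockout replicates 1, 2 and 3. Every knockout library was above every WT library, and the spread within a genotype was small beside the gap. The log2 fold change was 1.01 (95% interval 0.72 to 1.31, adjusted p = 0.00182, limma), which is a 2.02-fold ratio of means.

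Actg2 (ENSMUSG00000059430, chromosome 6, 83512905 to 83536265, minus strand) encodes gamma smooth muscle actin, the enteric form. Its values were 219.7, 157.9 and 205.4 FPKM in WT and 423.4, 454.5 and 453.4 in knockout libraries. The groups did not overlap, and WT replicate 2 was the lowest of its group. The log2 fold change was 1.201 (0.88 to 1.52, adjusted p = 0.00123, limma), or 2.28-fold. For each 100 FPKM of Acta2 there were 14.6 to 18.1 FPKM of Actg2 in WT and 17.8 to 21.6 in knockout libraries, ranges that overlapped.

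Myosin subunits differed from each other. Myl9 (ENSMUSG00000067818, chromosome 2, 156775420 to 156781658, plus strand) encodes the regulatory light chain that myosin light chain kinase phosphorylates. It stood at 333.3, 312.3 and 345.8 FPKM in WT and at 468.6, 412.9 and 485.5 in knockout libraries. The knockout libraries were higher without overlap, by 0.46 on the log2 scale (0.23 to 0.69, adjusted p = 0.0176, limma), the smallest increase among the 8. That call was lost without WT replicate 1, WT replicate 2 or knockout replicate 1 (adjusted p = 0.0721, 0.0734 and 0.076).

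Myh11 (ENSMUSG00000018830, chromosome 16, 14194535 to 14291372, minus strand), the smooth muscle myosin heavy chain, went the other way at a very low level. Its values were 0.68, 0.68 and 0.25 FPKM in WT, from 338, 379 and 114 estimated counts, and 0.15, 0.09 and 0.13 in knockout libraries, from 82, 46 and 66. All knockout libraries were below all WT libraries, with WT replicate 3 closest to them. With edgeR (quasi-likelihood), which tested 17479 genes by their estimated counts and called 8.12% of them lower, Myh11 had a log2 fold change of -2.11 (adjusted p = 0.0122). Without WT replicate 1 the adjusted p was 0.0554, and limma without the filter on low values gave 0.0974. DESeq2 called it lower (-2.11, adjusted p = 1.02e-05); of the 10 contractile genes it called 1 lower and 8 higher, against 7.74% and 8.35% of all genes. Myh11 was thus at 0.331% of the summed FPKM of 4 class II myosin heavy chains in WT and 0.056% in knockout libraries.

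Sequence before the start of the genes was inspected because 8 of the genes were higher in the knockout libraries and the CArG box is the element through which SRF acts. Promoters of 7 of the 10 genes (250 bases before to 50 after the start, RefSeq, build GRCm38.p6) were in the table used; Actg2, Tagln and Myh11 were not. A CArG box was found in the promoter of Myl9 and in 1.63% of 32851 promoters. A box with 1 changed base in its centre was found in Acta2 and Myl9 and in 8.5% of promoters. The CArG box and its variant read the same way on both strands. The stretch of 206 bases upstream of Myl9 (chr2:156775214-156775419, plus strand) is shown with both elements in capitals.
Myl9 upstream: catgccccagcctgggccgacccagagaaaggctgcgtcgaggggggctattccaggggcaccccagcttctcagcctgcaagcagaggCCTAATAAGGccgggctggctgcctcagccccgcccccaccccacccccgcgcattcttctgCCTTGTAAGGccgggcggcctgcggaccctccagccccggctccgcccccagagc
The changed boxes of Acta2 lie 84 and 34 bases before the RefSeq start (chr19:34255438-34255467 and chr19:34255388-34255417, minus strand) and are shown in capitals with flanking bases. The RefSeq start lies downstream of the start in the coordinates given above for Acta2, so both boxes are inside the gene as the deposited table bounds it.
Acta2 distal box: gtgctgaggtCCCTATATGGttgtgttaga
Acta2 proximal box: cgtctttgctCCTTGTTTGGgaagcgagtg
The MCAT element, the motif CATTCC on either strand that TEAD factors bind, was found in 14.7% of promoters and in those of Acta2, Lmod1 and Smtn. In Acta2 and Smtn the element lies inside the deposited bounds of the gene. For Lmod1 it is in capitals in the stretch of 30 bases upstream of the gene (chr1:135324671-135324700, plus strand).
Lmod1 MCAT: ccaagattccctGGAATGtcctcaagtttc
These letters describe the windows only; Cnn1, Synpo2 and Des held none of these motifs there.

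Actin-binding regulators of contraction were higher in the knockout libraries as well. Tagln (ENSMUSG00000032085, chromosome 9, 45929619 to 45936058, minus strand) encodes transgelin or SM22, which binds and stabilises actin filaments. It stood at 419.8, 408.7 and 436.5 FPKM in WT and at 714.8, 587.2 and 744.7 in knockout libraries. Knockout replicate 2 was the lowest of its group and still above all WT libraries, and the log2 fold change was 0.69 (0.41 to 0.96, adjusted p = 0.00698, limma). On the opposite strand, the annotated gene Gm48529 shares 1241 exonic bases with Tagln and had 24.7 to 25.8 FPKM in WT and 33.1 to 41.3 in knockout libraries. The library chemistry marked the strand, but no source used here states whether counting used it, and reads of the overlap cannot be told apart. Pcsk7, also on that strand, which shares 108 exonic bases, stood at 5.10 to 6.08 and 4.29 to 5.85 FPKM.

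Cnn1 (ENSMUSG00000001349, chromosome 9, 22099216 to 22109630, plus strand) encodes calponin, which restrains the ATPase of actomyosin. Its values were 32.01, 39.2 and 40.0 FPKM in WT and 70.1, 59.2 and 70.5 in knockout libraries. WT replicate 1 and knockout replicate 2 were the low libraries of their groups, which did not overlap. The log2 fold change was 0.83 (0.56 to 1.11, adjusted p = 0.003, limma), or 1.80-fold.

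Smtn (ENSMUSG00000020439, chromosome 11, 3517523 to 3540612, minus strand) encodes smoothelin, an actin-associated protein of contractile smooth muscle. It was among the tightest genes, at 16.5, 17.4 and 16.9 FPKM in WT and 23.8, 25.4 and 24.7 in knockout libraries. The groups were apart and the log2 fold change was 0.51 (0.37 to 0.66, adjusted p = 0.00149, limma). The antisense gene Gm11946, which shares 714 exonic bases with Smtn, stood at 0.35 FPKM or less in every library.

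Genes that build and anchor thin filaments were higher, with Synpo2 showing the largest fitted fold change of the 8. Lmod1 (ENSMUSG00000048096, chromosome 1, 135324807 to 135368065, plus strand) encodes leiomodin, which nucleates actin filaments in smooth muscle. It stood at 15.1, 14.7 and 13.2 FPKM in WT and at 27.6, 26.9 and 27.7 in knockout libraries. The knockout values lay within 1 FPKM of each other and well above WT, and the log2 fold change was 0.89 (0.72 to 1.06, adjusted p = 0.000282, limma), or 1.91-fold.

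Synpo2 (ENSMUSG00000050315, chromosome 3, 123076519 to 123236096, minus strand) encodes synaptopodin-2 or myopodin, which bundles actin at dense bodies and Z-discs. Its values were 0.63, 0.56 and 0.33 FPKM in WT, from 539, 538 and 257 estimated counts, and 2.62, 3.29 and 2.69 in knockout libraries, from 2423, 2784 and 2314. Every knockout library was above 2.5 FPKM and every WT library below 1. The log2 fold change on the log2(FPKM + 1) scale was 1.36 (1.08 to 1.64, adjusted p = 0.000408, limma), a scale that understates the change of low genes. It was 2.48 in edgeR (adjusted p = 0.000458), and the ratio of mean FPKM was 5.66.

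Des (ENSMUSG00000026208, chromosome 1, 75360329 to 75368579, plus strand) encodes desmin, the intermediate filament of muscle cells. It stood at 0.84, 1.21 and 0.27 FPKM in WT and at 0.35, 0.33 and 0.28 in knockout libraries. WT replicate 3 was at the knockout level, so the groups overlapped, and edgeR did not call the gene (log2 fold change -1.27, adjusted p = 0.132). Without WT replicate 3 it was called (-1.67, adjusted p = 0.00944). That library was also the lowest of its group for Myh11, Synpo2 and Lmod1, and had the fewest counts.

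**Figure D2:**
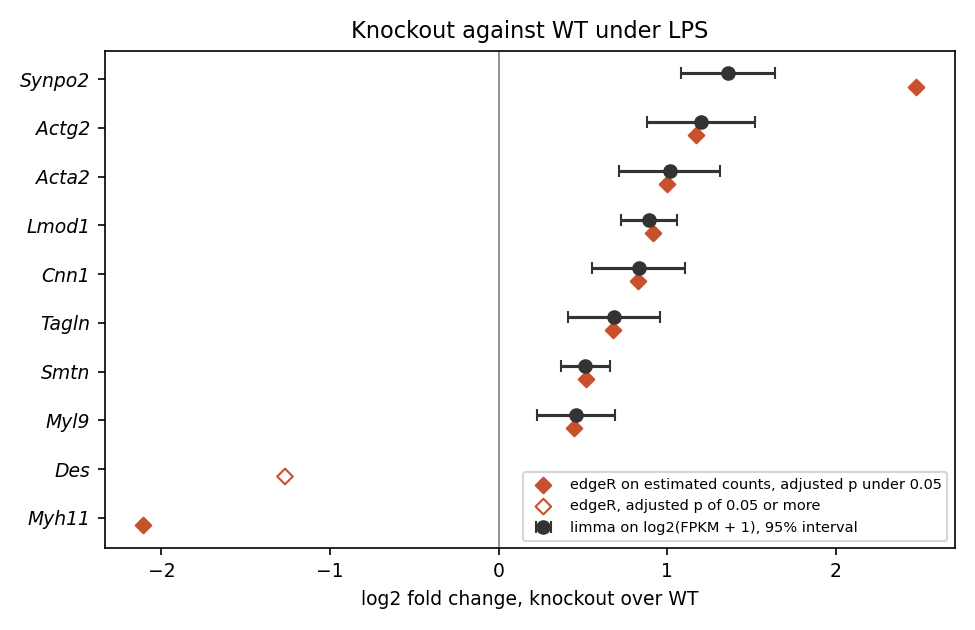
Log2 fold change (knockout over WT) of each contractile gene, with circles for limma on log2(FPKM + 1) and its 95% interval, filled diamonds for edgeR calls and an open diamond where edgeR made none. Intervals of the 8 tested genes lie above 0, and Myh11 at -2.11 and Des at -1.27 lie below.

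The order of levels was nearly shared by both genotypes. In WT libraries it ran from Acta2 over Tagln, Myl9, Actg2, Cnn1, Smtn and Lmod1 to Des, Myh11 and Synpo2, whose ranges overlapped with their neighbours. In knockout libraries Actg2 (444 ± 18 FPKM) overlapped with Myl9 (456 ± 38), Lmod1 (27.4 ± 0.44) stood above Smtn (24.6 ± 0.84), and Synpo2 (2.87 ± 0.37) stood apart from Des and Myh11. Summed over the 10 genes, libraries held 2032 to 2256 FPKM in WT and 3674 to 4346 in knockout cultures, most of it Acta2.

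Within a genotype the libraries did not move as a block. Knockout replicate 2 was the lowest of its group for Acta2, Tagln, Myl9, Cnn1 and Lmod1, by 0.15, 0.21, 0.14, 0.16 and 0.03 below the group mean of log2(FPKM + 1) in that order. The same library was the highest of its group for Synpo2, Actg2 and Smtn. In WT, the largest deviations were those of Des, 0.36 above the mean in replicate 2 and -0.45 in replicate 3.

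**Figure D3:**
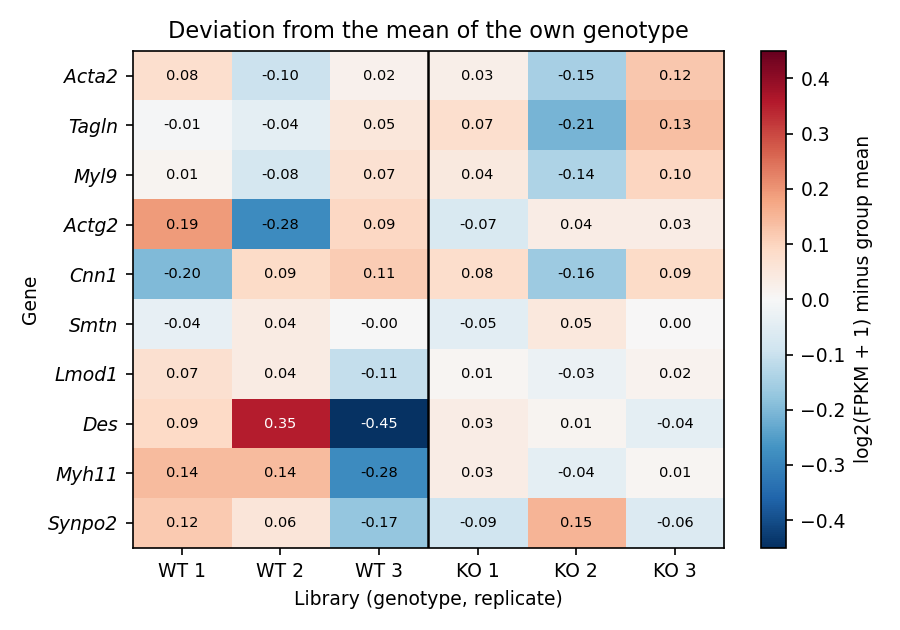
Deviation of log2(FPKM + 1) from the mean of the own genotype for each contractile gene (rows) and library (columns), red above and blue below the mean. Knockout replicate 2 is low for Acta2, Tagln, Myl9 and Cnn1 but not for Actg2 or Synpo2, and WT replicate 3 is low for Des and Myh11.

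Each contractile gene was set beside its paralogs, mostly forms used outside smooth muscle. The actin genes summed here include Actg2, with a mean share of 6.5% in WT and 9.45% in knockout libraries. Acta2 held 40.4%, 38.0% and 38.0% of the summed FPKM of 6 actin genes in WT and 51.6%, 48.1% and 49.0% in knockout libraries. The cytoplasmic actins Actb and Actg1 stood at 636.5 to 757.1 and 891.5 to 949.4 FPKM in WT and at 740.1 to 1005 and 976.9 to 1184 in knockout libraries, and neither was called (limma adjusted p = 0.228 and 0.259). The skeletal form Acta1 stood at 1.63 to 2.29 and 1.23 to 1.32 FPKM (adjusted p = 0.0706, limma), and cardiac Actc1 at 0.09 or less. Transcripts of Acta2 shared 0 of 1886 windows of 150 bases with transcripts of another gene in GENCODE M21, and those of Actg2 shared 0 of 1184, although reads with mismatches could still be assigned to either. Of 1986 windows of 50 bases in Acta2, 7 (0.352%) were shared with Actg1 and pseudogenes, and 0 of 1284 in Actg2.

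**Figure D4:**
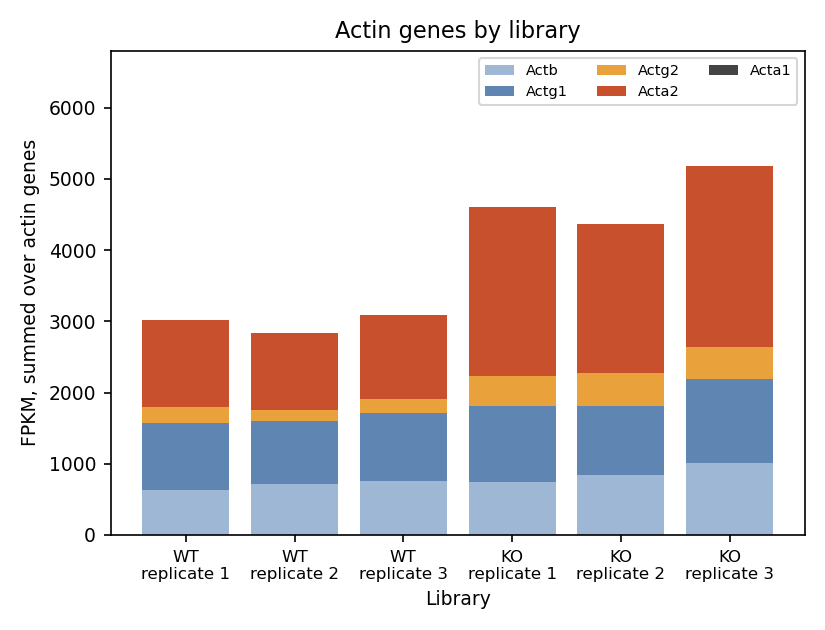
FPKM of the actin genes stacked for each library, with the smooth muscle forms Acta2 in red and Actg2 in orange above the cytoplasmic forms Actb and Actg1 in blue; Acta1 is too low to be seen. The summed actin level is 2839 to 3085 FPKM in WT and 4374 to 5180 in knockout libraries.

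Paralogs of the other genes rose, fell or were not called. Tagln2, the widely expressed transgelin, rose from 310 ± 32 to 429 ± 44 FPKM (0.46, adjusted p = 0.038, limma), a call lost without WT replicate 1, 2 or 3 and without knockout replicate 1 or 3 (adjusted p up to 0.116). Cnn2 and Cnn3, the calponins of non-muscle cells, had log2 fold changes of 0.29 and 0.05 (adjusted p = 0.08 and 0.701, limma), and the share of Cnn1 in the calponin family was 8.26% to 10.3% in WT and 13.5% to 14.4% in knockout libraries. Myh9, non-muscle myosin heavy chain IIA and the main class II heavy chain in these cells, rose from 131.5 ± 8.6 to 191 ± 14 FPKM (0.54, adjusted p = 0.0068), while Myh10 stood at 29.2 to 31.7 and 28.7 to 37.1 (adjusted p = 0.689). The light chain Myl12b fell from 23.8 ± 2.3 to 15.1 ± 1.6 FPKM (-0.62, adjusted p = 0.00743), and Myl12a was not called (0.11, adjusted p = 0.642). Of 24 tested genes of non-muscle actomyosin 4 were higher and 2 lower (16.7% and 8.33%, against 10.4% and 9.2% of all tested genes), but without any 1 of the WT libraries or knockout replicate 1 the counts were 1 and 1.

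Synaptopodins moved in opposite directions. Synpo, the form best known from kidney podocytes and neurons, fell from 8.85 ± 0.93 to 4.53 ± 0.48 FPKM (-0.83, adjusted p = 0.00196, limma), so that Synpo2 made up 4.02% to 6.08% of the family in WT and 34.4% to 42.2% in knockout libraries. Lmod2 was listed at 0 in every library, and Lmod3 did not exceed 0.03 FPKM. Vim, the intermediate filament of mesenchymal cells, stood at 276.7 to 319.4 FPKM in WT and 272.8 to 315.4 in knockout libraries (0.04, adjusted p = 0.83), far above Des in both. The smoothelin-like genes Smtnl1 and Smtnl2 did not exceed 0.35 FPKM, and Tagln3, Myh14, Synpo2l, Prph and Gfap did not exceed 0.69.

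Partners of the contractile apparatus included genes called in both directions. Of 48 further genes of smooth muscle structure and signalling, 35 were tested, of which 16 were higher and 5 lower in the knockout libraries (45.7% and 14.3%, against 10.4% and 9.2% of all tested genes; median log2 fold change 0.28). Ldb3, which was among the 16, passed the filter through the knockout libraries alone. Among the increases were Jph2 (junctophilin-2, which ties surface membrane to internal calcium stores), from 8.69 ± 0.57 to 28.4 ± 2.4 FPKM (1.60, adjusted p = 5.9e-05), and the small heat shock protein Hspb7, from 1.903 ± 0.25 to 7.31 ± 0.57 (1.52, adjusted p = 0.000117). The LIM-domain genes Fhl1 and Csrp2 rose from 16.1 ± 1.3 to 46.5 ± 7.9 (1.47, adjusted p = 0.000444) and from 34.9 ± 0.84 to 88.6 ± 10.8 FPKM (1.31, adjusted p = 0.000246).

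The 5 partners called lower were Aoc3, Mrvi1, Ednra, Fhl2 and Cavin1, of which Aoc3, Mrvi1 and Ednra passed the filter through the WT libraries alone. Aoc3, a surface amine oxidase abundant in smooth muscle and fat, fell from 3.00 ± 0.60 to 0.42 ± 0.11 FPKM (-1.48, adjusted p = 0.000468, limma). Mrvi1, a target of cGMP-dependent kinase, fell from 1.54 ± 0.16 to 0.52 ± 0.16 (-0.74, adjusted p = 0.00394) and the endothelin receptor Ednra from 1.18 ± 0.17 to 0.31 ± 0.07 (-0.73, adjusted p = 0.0024). Fhl2, a LIM-domain cofactor, fell from 68.9 ± 4.6 to 44.8 ± 0.74 FPKM (-0.61, adjusted p = 0.00145). The call of Cavin1 was lost without WT replicate 1, 2 or 3 and without knockout replicate 1 or 2 (limma adjusted p up to 0.0818).

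Partners below the filter were seen with edgeR, which tested 44 of the 48 and called 14 higher and 8 lower, against 8.48% and 8.12% of all genes. The lower ones named here were chosen after their values were seen. Kcnmb1, the smooth muscle subunit of a potassium channel, was at 0.12 to 0.16 FPKM in WT and 0.01 in each knockout library (edgeR log2 fold change -3.24, adjusted p = 0.00417). Ppp1r14a, an inhibitor of myosin phosphatase, was at 0.49 to 0.75 and 0.00 to 0.13 FPKM (-3.48, adjusted p = 0.0421), and the integrin Itga8 at 0.34 to 0.56 and 0.07 to 0.17 (-1.85, adjusted p = 0.0135). Sorbs2, an adaptor of the actin cytoskeleton, was the one gene below the filter that edgeR called higher, at 0.10 to 0.11 and 0.59 to 1.01 FPKM (2.83, adjusted p = 0.00016).

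Upstream regulators were compared next. Srf rose from 17.3 ± 0.33 to 23.6 ± 1.7 FPKM (0.42, adjusted p = 0.00792, limma), with 17.3, 17.1 and 17.7 in WT and 24.5, 21.6 and 24.7 in knockout libraries. The myocardin-related cofactors Mrtfa and Mrtfb were not called (-0.20 and 0.17, adjusted p = 0.134 and 0.522), and Myocd itself was listed at 0 in every WT library and did not exceed 0.08 FPKM in the knockout. Of 21 tested regulators 4 were higher and 2 lower (19.0% and 9.52%, against 10.4% and 9.2% of all tested genes), so the lower share was near the background. The number lower was 1 with the replicate number as a block and without WT replicate 1, WT replicate 2 or knockout replicate 1. The number higher was 3 in edgeR, with the block and without any 1 library other than knockout replicate 3. It was 5 in DESeq2 and 6 without knockout replicate 3. Elk3, among the 4 higher in limma, was not called by edgeR or DESeq2 (adjusted p = 0.0888 and 0.13). Gata6, a zinc finger factor of smooth muscle and heart, rose from 0.073 ± 0.025 to 1.84 ± 0.05 FPKM (1.41, adjusted p = 6.1e-05) and passed the filter through the knockout libraries alone, and Klf4, which is known to repress contractile genes, rose from 8.06 ± 0.79 to 12.6 ± 0.94 (0.59, adjusted p = 0.00533). The forkhead factor Foxo4 fell from 10.4 ± 0.46 to 7.49 ± 0.32 FPKM (-0.43, adjusted p = 0.00559).

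The TGF-beta pathway, the classical inducer of the myofibroblast set, changed in both directions. Of 24 tested genes 8 were higher and 4 lower (33.3% and 16.7%, against 10.4% and 9.2% of all tested genes), with a median log2 fold change of 0.04. The ligand Tgfb2 rose from 1.88 ± 0.16 to 6.84 ± 0.52 FPKM (1.45, adjusted p = 8.9e-05, limma). The inhibitory genes Smad6 and Smurf2 rose from 3.00 ± 0.50 to 5.11 ± 0.40 and from 12.03 ± 1.3 to 18.5 ± 1.0 FPKM (adjusted p = 0.0112 and 0.00588). The target Tgfbi fell from 17 ± 1.3 to 6.23 ± 0.28 (-1.31, adjusted p = 9.2e-05), and the co-receptor Tgfbr3 from 27.6 ± 2.0 to 13.9 ± 1.3 (-0.95, adjusted p = 0.000598).

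Other genes of activated fibroblasts did not follow the contractile set as a whole. Of 23 tested, 9 were higher and 10 lower (39.1% and 43.5%, against 10.4% and 9.2% of all tested genes), with a median log2 fold change of -0.15. These are the counts given above beside Thy1 and Pdgfra. Periostin (Postn) rose from 50.9 ± 2.0 to 168 ± 66 FPKM (1.62, adjusted p = 0.0115, limma), with 199.1, 212.8 and 93.0 in the knockout libraries. Ccn1, a secreted matricellular gene and SRF target, rose from 249 ± 8.8 to 438 ± 28 (0.81, adjusted p = 0.000885). Spp1 (osteopontin) fell from 1784 ± 109 to 775 ± 124 (-1.21, adjusted p = 0.0018), and tenascin-C (Tnc) from 253 ± 14 to 136 ± 11 FPKM (-0.89, adjusted p = 0.000762). Without WT replicate 1 or 3 the number of higher genes was 5.

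Markers of other cell types that hold contractile genes were examined next. Of 13 pericyte markers 7 were tested, of which none was higher and 3 were lower (42.9%), against 10.4% and 9.2% of all tested genes. Pdgfrb, the receptor shared by pericytes and stromal cells, fell from 89.0 ± 4.0 to 62.0 ± 2.2 FPKM (-0.51, adjusted p = 0.00229, limma), and Rgs5, Kcnj8 and Abcc9 did not exceed 0.17 FPKM. At an unadjusted p under 0.05 the number of higher pericyte markers was also 0, and of 8 tested by edgeR 0 were called higher and 3 lower. Of 34 markers of skeletal and cardiac muscle 3 were tested and none was called by limma (1, Tnnc1, was called lower without knockout replicate 3), 12 were listed at 0 in every library, and the muscle factors Myod1, Myog and Myf5 did not exceed 0.04. The only marker of this list that edgeR called was Tnnt2 (-1.21, adjusted p = 0.0311). All 10 endothelial markers were below the filter, with Cdh5 and Vwf at 0.08 FPKM or less, and edgeR called 2 of them lower.

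**Figure D5:**
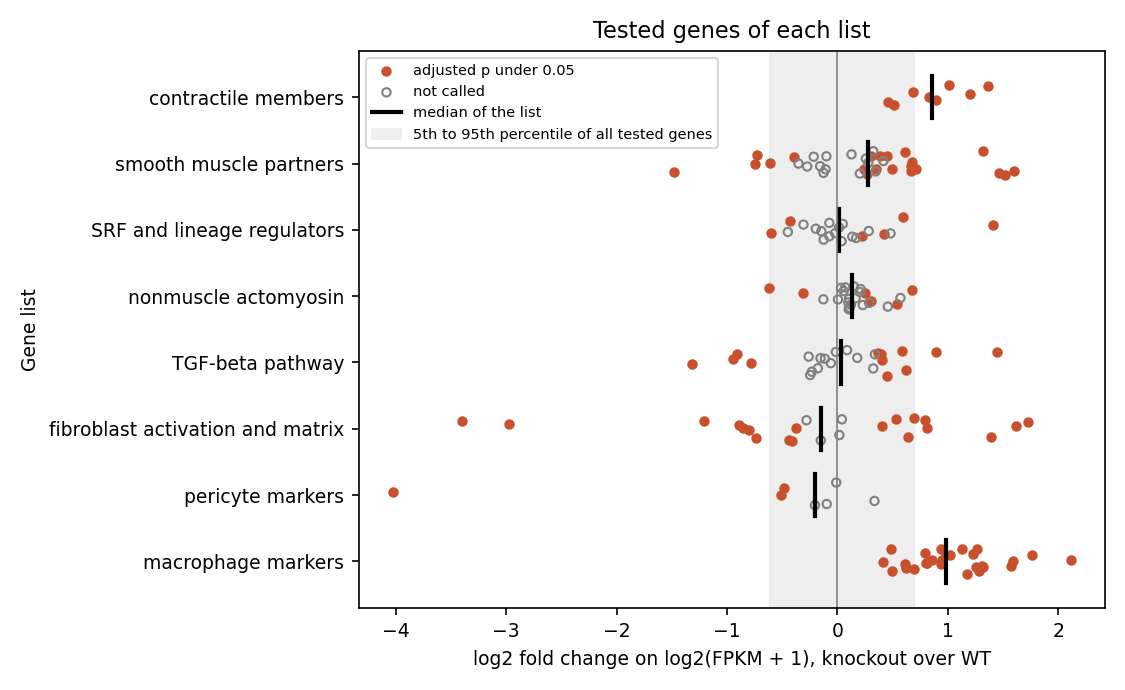
Log2 fold change on the log2(FPKM + 1) scale (knockout over WT) of each tested gene in 8 lists, filled where the limma adjusted p is under 0.05, with the list's median as a black bar and the 5th to 95th percentile of all tested genes (-0.61 to 0.69) in grey. The contractile genes (median 0.86) and the macrophage markers (0.98) lie to the right. The medians of the other lists run from -0.20 (pericyte markers) and -0.15 (fibroblast activation and matrix) to 0.28 (smooth muscle partners).

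The genes whose profile over the 6 libraries was most like the mean standardised profile of the 8 tested contractile genes were Hcls1, Ccn2, Mt2, Aen and Nsg1, with Pearson's r of 0.9997 to 0.9988. Ccn2, a matricellular SRF and YAP target, had means of 239 ± 10 (WT) and 792 ± 57 FPKM (knockout), and Hcls1, an actin-binding adaptor of blood cells, had means of 17.4 ± 0.68 and 38.1 ± 2.5. Across 6 libraries in 2 groups such values mostly follow the genotype, and 192 of 12128 other tested genes reached an r of 0.99, so the likeness is a description of these libraries only.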

How the data were processed

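Polyadenylated RNA of 6 LPS-exposed cultures was sequenced. The tools were cutadapt 1.9, HISAT2 2.0.4 and StringTie 1.3.4d, and the build GRCm38, per the submitters' processing notes; no annotation release or strand setting for counting is stated there. The authors deposited FPKM values, to 2 decimals, and estimated counts. The deposited estimated counts are whole numbers that over 5837 genes were proportional to FPKM (100.0% within 1%). Of those up to 16, 44.4% were multiples of 4, and a fragment was taken as 4 counts. This unit is approximate, as the other low counts were not such multiples, and fragment totals cover counting error only. The count models of edgeR and DESeq2 took the estimated counts undivided.

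Where 3 or more libraries reached an FPKM of 1, the gene entered limma 3.58.1 (R 4.3.3) as log2(FPKM + 1), with an intensity trend and no term but genotype; p-values were two-sided and adjusted by Benjamini-Hochberg over all tested genes. The quasi-likelihood test of edgeR 4.0.16, DESeq2 1.42.0 and other settings were alternatives, checked on simulated data. The genes and lists were chosen with earlier results of these data known. All 10 genes are named; of other lists, called genes are named, at most the 4 largest changes in each direction, with Srf, Myocd, Mrtfa, Mrtfb, paralogs and defining macrophage markers. Titles number the libraries of a genotype as days 1 to 3, but another label gives day 1 for all, so the number only names replicates.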

Additional observations from a re-analysis of the deposited data

How the results depend on the processing

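Of 111 refits of the 8 tested contractile genes, 108 kept the direction and the call, and 3 lost the call of Myl9, as given above. The number of contractile genes called higher was 7 with an FPKM minimum of 5, where Synpo2 was not tested, and 7 to 8 with a library left out. The number called lower was 1 in edgeR with or without TMM factors and in DESeq2 (Myh11), which test genes below the FPKM filter. Of the smooth muscle partners, 14 were called higher in edgeR with TMM, 18 without TMM and 17 in DESeq2, against 16. With a library left out, 11 to 16 partners were called higher. The number of partners called lower was 8 without a filter on low values and in edgeR with or without TMM, against 5. It was 9 in DESeq2, 2 with an FPKM minimum of 5, and 4 to 6 with a library left out. Over all genes, 817 were called higher with an FPKM minimum of 5, which tested 7105 genes, against 1264, and with a library left out 868 to 1685 were called higher and 721 to 1314 lower, the lowest without WT replicate 1. With the replicate number as a block, all 8 contractile genes stayed called and 1106 genes were higher and 980 lower. Deviations of same-numbered libraries from their group means correlated at 0.02, 0.168 and 0.096, and those of differently numbered libraries at -0.171 to 0.081. These values do not settle whether the numbers pair the samples, and the main fit had no term for them. At the depth of these libraries Myh11 and Des rest on 11.5 to 94.75 fragments per library, if a fragment is 4 counts.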

Other observations

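Genes that respond quickly to handling and serum, several of them SRF targets themselves, were examined beside the contractile genes. Of 10 tested immediate early genes 2 were higher and 1 lower (20% and 10%, against 10.4% and 9.2% of all tested genes). The higher ones were Atf3 (2.40 ± 0.52 to 7.06 ± 0.89 FPKM, adjusted p = 0.00114, limma) and Dusp1 (12.9 ± 0.90 to 23.8 ± 0.68, adjusted p = 0.000387), and Zfp36 was lower (21.4 ± 1.3 to 13.1 ± 2.3, adjusted p = 0.00889). Without knockout replicate 1 the number lower was 2, with Egr2. Fos and Egr1, classical SRF targets, were not called (log2 fold changes 0.09 and 0.14, adjusted p = 0.616 and 0.339). None of 10 proliferation genes was called by limma or edgeR, Mki67 standing at 9.63 to 11.7 FPKM in WT and 7.86 to 21.1 in knockout libraries; without knockout replicate 3, 2 of them were called higher.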
